A study of Homo sapiens with 18 samples.

Results

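The genes described here are the 8 subunits of the human condensin complexes, together with TOP2A and MKI67, 10 genes in all of the 39859 gene symbols in the count tables. They were listed by gene symbol, with earlier results of these data known, and all 10 had enough reads to be tested. RKO-iCas9 cells, a human colon carcinoma line in which doxycycline switches on Cas9, were measured in 18 libraries by QuantSeq, a method that sequences the 3′ ends of mRNAs. Targeted cells carried a guide RNA against ERH, an RNA-processing factor (sgERH), and the control cells carried a guide against the AAVS1 safe-harbour locus (sgAAVS1). Both had 100 ng/mL doxycycline for 5 days, then 4 h of IFNγ (25 ng/mL), of IL-1β (10 ng/mL) or of no cytokine (NT), with 3 libraries labelled as biological replicates in each of the 6 groups. Cells were sorted pools with a constitutively expressed guide, so that edited and unedited alleles could be mixed, and 1 guide RNA label stood for each target.

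Condensins are ring-shaped ATPases that extrude loops of DNA and compact chromosomes for mitosis. Both complexes share the SMC2 and SMC4 core: condensin I adds NCAPD2, NCAPG and NCAPH and meets chromosomes after the nuclear envelope breaks down, and condensin II adds NCAPD3, NCAPG2 and NCAPH2 and is nuclear through interphase. TOP2A, the topoisomerase II of dividing cells, untangles DNA strands and works on the same chromosome axes, and MKI67 encodes Ki-67, the proliferation marker that coats mitotic chromosomes and keeps them apart. Many genes of this kind are switched off in resting cells through the cell cycle genes homology region (CHR), a short promoter element bound by the DREAM and MMB complexes through LIN54.

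Stretches of 6 promoters are printed because the CHR letters lie both in genes that fell in sgERH cells in at least 1 treatment and in NCAPD3, which did not pass the test. They are RefSeq sequence on GRCh38.p14, 60 bases each, 5′ to 3′ on the strand of the gene, and capitals mark TTTGAA or its reverse complement TTCAAA.
SMC4 (chr3:160399550-160399609, plus strand): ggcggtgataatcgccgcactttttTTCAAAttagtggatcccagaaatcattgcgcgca
NCAPD2 (chr12:6493922-6493981, plus strand): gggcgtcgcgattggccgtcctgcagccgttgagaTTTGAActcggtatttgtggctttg
NCAPG (chr4:17810919-17810978, plus strand): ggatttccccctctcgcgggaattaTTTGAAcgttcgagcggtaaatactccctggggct
TOP2A (chr17:40418037-40418096, minus strand): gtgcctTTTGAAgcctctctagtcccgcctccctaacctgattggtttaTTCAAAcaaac
MKI67 (chr10:128126424-128126483, minus strand): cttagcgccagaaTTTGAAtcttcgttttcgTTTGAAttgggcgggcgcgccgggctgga
NCAPD3 (chr11:134223963-134224022, minus strand): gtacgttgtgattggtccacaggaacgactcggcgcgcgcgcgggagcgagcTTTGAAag

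The promoter table, which spans 250 bases before to 50 bases after each start, matched 9 of the 10 genes with 12 windows. NCAPH2 had no entry. The CHR letters searched were TTTGAA and TTCGAA on both strands, and 8 of the 12 windows held a match, in 8 genes, against 11.5% of the 13302 windows of genes tested here and 16.4% of all 35116 windows. The gene without a match was NCAPH. SMC2, SMC4 and NCAPD3 had 2 windows each, with a match in 1. The stretches printed for SMC4 and NCAPD3 are from the window with the match. CCAAT, the letters read by NF-Y, stood on either strand in 5 of the 12 windows, against 35.0% of the windows of tested genes. Both sets of letters were present in 4 of the 12, in NCAPD2, NCAPD3, TOP2A and MKI67, against 4.61%. Letters read by E2F factors (TTTCCCGC, TTTCGCGC, TTTGCCGC or TTTGGCGC, both strands) were found in 1 window, that of NCAPD3, against 5.25%. A match is a description of the letters in the window, and binding was not measured.

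The study had set aside 3 libraries that stood apart in a principal component analysis (sgERH IFNγ replicate 2, sgAAVS1 NT replicate 1 and sgAAVS1 IL-1β replicate 3), and the values below are of the other 15 unless stated. These 15 held 4987127 to 5986338 reads, and 20.4% to 23.2% of reads were multimapping. Replicate pairs differed by more than sampling noise in every group, with a chi-square per degree of freedom of 2.48 to 16.9. The highest values, 13.8 and 16.9, belonged to pairs with sgERH IL-1β replicate 2. ERH itself had 257 to 355 CPM (reads per 1000000 reads of the library) in sgERH libraries and 515 to 592 CPM in sgAAVS1 libraries. A window at the 3′ end does not show whether a gene was cut, so this does not check the edit. The set-aside library labelled sgAAVS1 NT replicate 1 had 52.7 CPM of ERH, under every sgERH library used. Of 5 epithelial markers, KRT8, KRT18 and EPCAM were present, KRT19 had 0 reads and CDH1 1 read. Of the leukocyte and the fibroblast or endothelial markers, 4 of 6 in each list had 0 reads and none had more than 4. The summed epithelial markers were 94.6 to 115 CPM in sgERH libraries and 114 to 137 CPM in sgAAVS1 libraries. Its members went opposite ways: in NT, EPCAM was at 16.8 ± 3.2 CPM in sgERH libraries and 5.95 ± 1.59 CPM in sgAAVS1 libraries, and KRT18, with 43.6% of reads multimapping, at 57.9 ± 2.5 CPM in sgERH libraries and 109 ± 6.8 CPM in sgAAVS1 libraries (TMM-scaled, SD, n = 3 and 2). The part of these markers in the results was not tested.

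Averaged over the 3 treatments, 7 of the 10 genes fell in sgERH cells, against 2.14% of all 13370 genes tested. With library totals in place of TMM factors 6 of 10 fell, against 1.2% of genes, since SMC2 was at -0.91. A gene is said to have fallen or risen where edgeR's quasi-likelihood test gave an adjusted p (Benjamini-Hochberg over all genes) no higher than 0.05 and the level changed by a log2 fold change of 1 or more either way. NCAPG, SMC4, TOP2A, NCAPG2, NCAPH, MKI67 and SMC2 passed, with log2 fold changes of -1.75 to -1.07. NCAPD2, at -0.999 ± 0.096 (SE), lay just short of the fold threshold, NCAPH2 was at -0.76 ± 0.07, and NCAPD3 was at -0.077 ± 0.119. The median was -1.27 over the 3 condensin I subunits and -0.76 over the 3 condensin II subunits. By the adjusted p alone 9 of 10 were lower, against 23.2% of genes. The median over the 10 genes was -1.27 and the median over all genes was 0.04. In 9 of the 10 genes every sgERH library lay under every sgAAVS1 library, against 9.56% of genes, and NCAPD3 was the exception. Those levels were TMM-scaled, and on CPM of total reads 7 of 10 genes did not overlap, against 5.74% of genes, since the highest sgERH library passed the lowest sgAAVS1 library for NCAPH (9.50 against 8.26 CPM) and NCAPG2 (25.4 against 23.6 CPM). In bulk RNA, fewer cells that express a gene and less RNA per cell cannot be told apart.

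Within treatments, 5 of the 10 genes fell without cytokine, against 2.3% of all genes. With IFNγ 6 fell, against 2.37%, and with IL-1β 8 fell, against 2.8%. By the adjusted p alone 8 of 10 were lower without cytokine (13.7% of genes), 9 with IFNγ (12.6%) and 9 with IL-1β (13.1%). The medians over the 10 genes were -0.998 in NT, -1.33 with IFNγ and -1.55 with IL-1β, against all-gene medians of 0.04, 0.04 and 0.02. With library totals in place of TMM factors the all-gene median without cytokine moved to 0.22, and 3 of 10 genes fell there, against 1.05% of genes, SMC2 at -0.87 and TOP2A at -0.90 no longer passing. With all 18 libraries 4 of 10 genes fell in NT (2.49% of all genes), 4 with IFNγ (0.937%), 3 with IL-1β (0.862%) and 8 on average (1.76%). SMC4, NCAPG and MKI67 fell in every treatment with TMM, with library totals and with all 18 libraries. TOP2A did not pass within any treatment with all 18, at -0.52, -1.94 and -1.82 with adjusted p of 0.663, 0.143 and 0.165 in NT, IFNγ and IL-1β (edgeR), and fell on average. SMC2, NCAPD2 and NCAPH likewise passed in no treatment with all 18 and fell on average. Their smallest adjusted p within a treatment was 0.171, 0.0501 and 0.122, in that order (edgeR). Without sgERH IL-1β replicate 2, 8 genes still fell with IL-1β, against 299 of 13302 genes. Scaling by library totals changed the split over all genes without cytokine from 795 risen and 307 fallen to 1173 risen and 140 fallen.

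**Figure D1:**
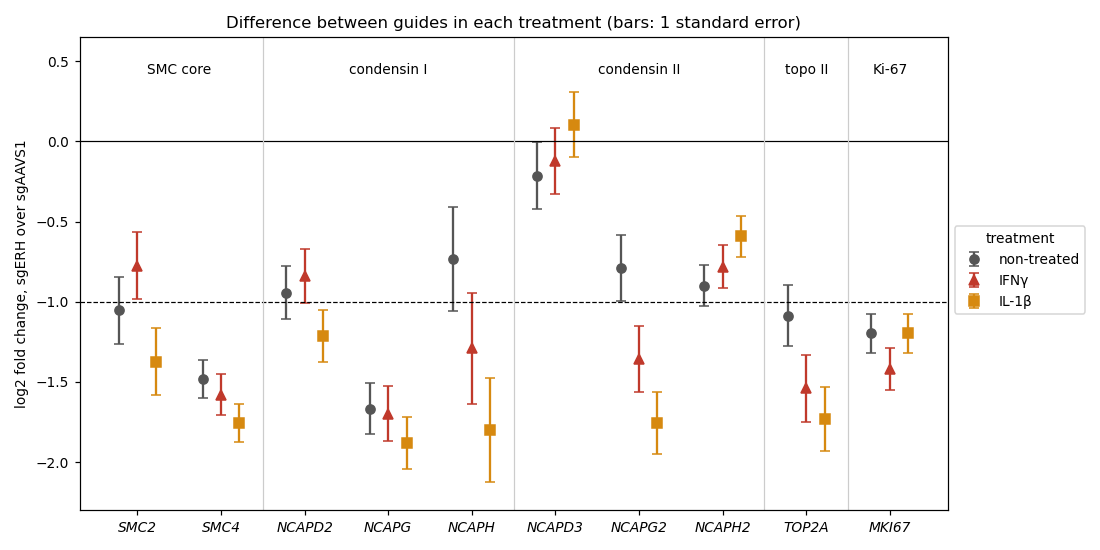
Log2 fold change of sgERH over sgAAVS1 (y axis) for each of the 10 genes (x axis), grouped by role, in the 3 treatments. Error bars are standard errors, the dashed line marks the fold threshold, NCAPD3 lies between -0.21 and 0.11, and NCAPG is lowest in each treatment, from -1.88 to -1.67.

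The core subunits SMC2 and SMC4 form the hinge and ATPase heads of both complexes. SMC4 (chromosome 3, 160399274 to 160434954, plus strand) had 302, 328 and 248 CPM (TMM-scaled) in sgERH NT libraries, against 909 and 725 CPM in sgAAVS1 NT libraries. With IFNγ it had 247 and 280 CPM in sgERH libraries, against 742, 840 and 778 CPM in sgAAVS1 libraries. With IL-1β it had 238, 237 and 255 CPM in sgERH libraries, against 886 and 760 CPM in sgAAVS1 libraries. No sgERH library reached an sgAAVS1 library in any treatment, and the sgERH values lay closer together than the sgAAVS1 values with IL-1β. SMC4 fell by 1.48 ± 0.12, 1.58 ± 0.13 and 1.76 ± 0.12 on the log2 scale (SE) in NT, IFNγ and IL-1β, and 3.04-fold on average (adjusted p = 5.13e-16, edgeR).

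SMC2 (chromosome 9, 104094260 to 104141419, plus strand) had 8.77 to 17.8 CPM over the 8 sgERH libraries (median 13.1), against 23.9 to 30.5 CPM over the 7 sgAAVS1 libraries (median 27.2). The guides did not overlap, and the lowest sgERH value belonged to IL-1β replicate 2. It fell without cytokine (-1.05 ± 0.21) and with IL-1β (-1.37 ± 0.21), and was at -0.78 ± 0.21 with IFNγ, lower by the adjusted p (0.00756, edgeR) but short of the fold threshold. Without sgERH NT replicate 2 or sgAAVS1 NT replicate 3 the NT value was -0.93 or -0.96 and no longer passed, and the IFNγ value was -0.58 (adjusted p = 0.158, edgeR) without sgERH IFNγ replicate 1 and -1.02 (adjusted p = 0.0137) without sgERH IFNγ replicate 3.

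On average 2 of 3 condensin I subunits fell by edgeR, against 2.14% of all genes. By DESeq2 3 of 3 fell, against 300 of 13370 genes, with NCAPD2 at -1.007. NCAPG (chromosome 4, 17810979 to 17844865, plus strand), a HEAT-repeat subunit whose yeast counterpart binds DNA together with the kleisin, had 28.4, 41.5 and 31.3 CPM in sgERH NT libraries, against 121 and 93.4 CPM in sgAAVS1 NT libraries. With IFNγ it had 28.5 and 38.1 CPM in sgERH libraries, against 101, 124 and 100 CPM in sgAAVS1 libraries. With IL-1β it had 31.7, 35.8 and 27.7 CPM in sgERH libraries, against 122 and 112 CPM in sgAAVS1 libraries. Even the highest sgERH library, at 41.5 CPM, was under the lowest sgAAVS1 library, at 93.4 CPM. NCAPG fell in each treatment, at -1.67 ± 0.16, -1.70 ± 0.17 and -1.88 ± 0.16 in NT, IFNγ and IL-1β (SE), and was 3.36-fold lower on average (adjusted p = 6.4e-14, edgeR), the largest fall of the 10 genes.

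NCAPH (chromosome 2, 96335766 to 96377091, plus strand), the kleisin that closes the condensin I ring, had the fewest reads, 11 to 98 per library. It had 8.87, 5.95 and 9.01 CPM in sgERH NT libraries, against 9.03 and 17.2 CPM in sgAAVS1 NT libraries, which on CPM of total reads overlapped. The fit there gave -0.73 ± 0.32 (SE) with an adjusted p of 0.0979 (edgeR). With IFNγ it had 6.29 and 5.99 CPM in sgERH libraries, against 13.7, 15.9 and 15.6 CPM in sgAAVS1 libraries. With IL-1β it had 7.08, 2.10 and 7.19 CPM in sgERH libraries, against 18.4 and 20.1 CPM in sgAAVS1 libraries. With both cytokines the guides were well apart and it fell, at -1.29 ± 0.34 and -1.80 ± 0.33. Without sgERH IL-1β replicate 2, which had 11 reads, the value with IL-1β was -1.43. The IFNγ call rested on both sgERH libraries, with adjusted p of 0.0649 and 0.0696 (edgeR) without sgERH IFNγ replicate 1 or 3, and the NT value was -1.11 (adjusted p = 0.0345) without sgAAVS1 NT replicate 2 and -0.19 (adjusted p = 0.803) without sgAAVS1 NT replicate 3.

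NCAPD2 (chromosome 12, 6493356 to 6531955, plus strand), the other HEAT-repeat subunit of condensin I, had 29.0 to 49.4 CPM over the sgERH libraries (median 41.4), against 66.3 to 95.9 CPM over the sgAAVS1 libraries (median 86.9). The guides did not overlap. It fell with IL-1β (-1.21 ± 0.16) and stayed short of the fold threshold without cytokine (-0.94 ± 0.17) and with IFNγ (-0.84 ± 0.17), at adjusted p of 0.000118 and 0.000511 (edgeR). Without sgERH NT replicate 3 the NT value was -1.03 (adjusted p = 0.000271) and passed.

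The condensin II subunits did not move alike. NCAPD3 (chromosome 11, 134150113 to 134225504, minus strand), the counterpart of NCAPD2, had 18.1, 15.3 and 18.7 CPM in sgERH NT libraries, against 16.6 and 23.6 CPM in sgAAVS1 NT libraries. With IFNγ it had 17.2 and 24.3 CPM in sgERH libraries, against 24.3, 19.0 and 24.6 CPM in sgAAVS1 libraries. With IL-1β it had 21.1, 28.2 and 23.3 CPM in sgERH libraries, against 22.2 and 22.8 CPM in sgAAVS1 libraries. The guides overlapped in every treatment. Its log2 fold changes were -0.21 ± 0.21, -0.12 ± 0.21 and 0.11 ± 0.21 (SE), with adjusted p of 0.488, 0.715 and 0.753 (edgeR), and this does not show that its level was equal. With library totals in place of TMM factors its average was 0.079 in place of -0.077.

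NCAPG2 (chromosome 7, 158631169 to 158704804, minus strand), the counterpart of NCAPG, had 18.4, 14.2 and 16.3 CPM in sgERH NT libraries, against 25.8 and 30.6 CPM in sgAAVS1 NT libraries. With IFNγ it had 17.2 and 18.2 CPM in sgERH libraries, against 39.9, 42.9 and 53.5 CPM in sgAAVS1 libraries. With IL-1β it had 17.3, 12.2 and 23.5 CPM in sgERH libraries, against 57.5 and 62.3 CPM in sgAAVS1 libraries. The sgERH libraries had 12.2 to 23.5 CPM across treatments, and the sgAAVS1 libraries were higher with each cytokine than in NT. In sgAAVS1 cells the difference with IFNγ was not called (adjusted p = 0.117, edgeR). A difference between guides in the response did not pass, with adjusted p of 0.859 for IFNγ and 0.295 for IL-1β (edgeR). NCAPG2 was at -0.79 ± 0.21 without cytokine (adjusted p = 0.00495, edgeR) and fell with IFNγ (-1.36 ± 0.21) and IL-1β (-1.75 ± 0.19). Without sgAAVS1 NT replicate 3 the NT value was -0.66 (adjusted p = 0.0884).

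NCAPH2 (chromosome 22, 50508224 to 50524780, plus strand), the condensin II kleisin, had 44.2 to 54.5 CPM over the sgERH libraries (median 44.8), against 68.6 to 89.0 CPM over the sgAAVS1 libraries (median 76.1). The guides did not overlap, yet the fold threshold was not reached in any treatment, with log2 fold changes of -0.90 ± 0.13, -0.78 ± 0.13 and -0.59 ± 0.13 (SE) and adjusted p of 0.00107 or lower (edgeR). With all 18 libraries it was at -1.39 in NT, where it passed, and at -0.50 with IFNγ and -0.59 with IL-1β, with adjusted p of 0.394 and 0.298 (edgeR).

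TOP2A (chromosome 17, 40388525 to 40417896, minus strand) had 21.9, 26.9 and 25.3 CPM in sgERH NT libraries, against 55.0 and 50.1 CPM in sgAAVS1 NT libraries. With IFNγ it had 17.0 and 17.3 CPM in sgERH libraries, against 46.8, 53.9 and 48.9 CPM in sgAAVS1 libraries. With IL-1β it had 15.04, 8.96 and 21.1 CPM in sgERH libraries, against 51.3 and 49.0 CPM in sgAAVS1 libraries. The sgAAVS1 libraries stayed between 46.8 and 55.0 CPM in all treatments, and the sgERH libraries spread more, with IL-1β replicate 2 lowest. TOP2A fell in each treatment (-1.09 ± 0.19, -1.54 ± 0.21 and -1.73 ± 0.20) and was 2.74-fold lower on average (adjusted p = 6.5e-11, edgeR). Without sgERH IL-1β replicate 2 the value with IL-1β was -1.47.

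MKI67 (chromosome 10, 128096659 to 128126423, minus strand) had 50.7 to 68.3 CPM over the sgERH libraries (median 57.9), against 130 to 152 CPM over the sgAAVS1 libraries (median 137). The groups did not overlap, and the 3 treatments gave close values, -1.20 ± 0.12, -1.42 ± 0.13 and -1.20 ± 0.12 (SE), each of them called (largest adjusted p 4.89e-08, edgeR).

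Whether 1 subunit moved more than its partner was tested on the ratio of their reads within each library, which library scaling leaves as it is apart from the pseudocount. The test was an exact two-sided permutation of guide labels within treatments (1000 arrangements, 0.001 the smallest p they can give), adjusted over 4 pairs. NCAPD2 over NCAPD3 had log2 ratios of 0.04 to 1.52 in sgERH libraries, against 1.55 to 2.11 in sgAAVS1 libraries, with no overlap. The difference, averaged over treatments, was -0.93 (exact permutation p = 0.001, adjusted p = 0.004), so that NCAPD2 was 1.90-fold lower relative to NCAPD3 in sgERH cells, at -0.76 in NT, -0.69 with IFNγ and -1.34 with IL-1β. Without sgERH IL-1β replicate 2, which held the lowest ratio, it was -0.82. With all 18 libraries it was -0.99 with an adjusted p of 0.068 by the same exact test.

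The other pairs were less apart. SMC2 over SMC4 had log2 ratios of -5.01 to -3.97 in sgERH libraries and -5.24 to -4.63 in sgAAVS1 libraries, which overlapped, and differed by 0.52 (exact permutation p = 0.01, adjusted p = 0.02). SMC4 thus fell further than SMC2, but with all 18 libraries this difference was 0.21 (adjusted p = 0.649) and without sgAAVS1 NT replicate 2 it was 0.44 (adjusted p = 0.0533), both by the exact test. NCAPG over NCAPG2 differed by -0.44 (exact permutation p = 0.088, adjusted p = 0.11) and NCAPH over NCAPH2 by -0.56 (exact permutation p = 0.11, adjusted p = 0.11), neither passing. Leaving out 1 library made them pass once each: NCAPG over NCAPG2 was -0.55 without sgERH IL-1β replicate 2 (adjusted p = 0.0244) and NCAPH over NCAPH2 was -0.70 without sgAAVS1 NT replicate 2 (adjusted p = 0.04).

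**Figure D2:**
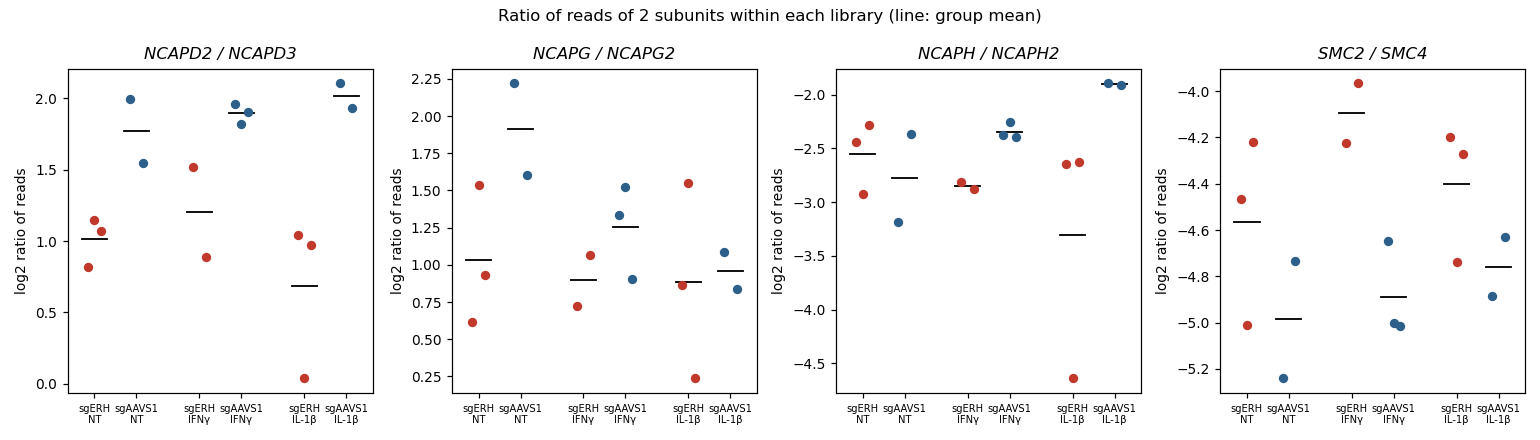
Log2 ratio of the reads of 2 subunits in each of the 15 libraries (y axis), for 4 pairs, with sgERH (red) left of sgAAVS1 (blue) in each treatment and a line at the group mean. For NCAPD2 over NCAPD3 the highest sgERH library, at 1.52, is under the lowest sgAAVS1 library, at 1.55, and in the other 3 pairs the guides overlap.

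The cytokines alone moved few of these genes within 4 h. In sgAAVS1 cells IL-1β raised NCAPG2, to 59.9 ± 3.4 CPM against 28.2 ± 3.4 CPM in NT cells (SD, n = 2 each), a log2 fold change of 1.08 ± 0.21 (SE, adjusted p = 0.00673, edgeR), and 1 of 10 genes rose there, against 0.628% of all genes. The call was lost without any of 3 libraries: NCAPG2 was at 0.97 without sgAAVS1 NT replicate 2, 1.21 without sgAAVS1 NT replicate 3 and 1.03 without sgAAVS1 IL-1β replicate 2, with adjusted p of 0.169, 0.0504 and 0.158 (edgeR). With all 18 libraries it was at 1.19 with an adjusted p of 0.301. No gene of the 10 was called with IFNγ in sgERH or sgAAVS1 cells by edgeR or DESeq2. Over all genes edgeR called 0.015% and 0.598% in the same order. DESeq2 had 7 risen and 1 fallen of 13370 in sgERH cells, and 97 risen and 0 fallen in sgAAVS1 cells. At an unadjusted p under 0.05 edgeR gave 2 of the 10 in sgERH cells, against 6.64% of all genes, and 1 in sgAAVS1 cells, against 9.37%, NCAPG2 at 0.68 ± 0.20. With IL-1β in sgERH cells 0 of 10 were called by either tool, against 0.292% of all genes by edgeR, and 39 risen and 6 fallen of 13370 by DESeq2. By edgeR 3 of the 10 had an unadjusted p under 0.05 (1869 of all 13370 genes), with TOP2A at -0.71 ± 0.19 and an adjusted p of 0.0733.

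Whether the guides differed in the cytokine response was tested as an interaction. None of the 10 genes passed for IFNγ or for IL-1β by edgeR or DESeq2. Over all genes edgeR called 0.202% for IFNγ and 0% for IL-1β. DESeq2 called 29 of 13370 genes lower for IFNγ and 2 for IL-1β, and 0 higher for either. At an unadjusted p under 0.05 edgeR gave 0 of the 10 for IFNγ, against 5.84% of all genes, and 3 of the 10 for IL-1β, against 11.1%. The 3 were NCAPG2 at -0.96 ± 0.28, NCAPH at -1.07 ± 0.46 and TOP2A at -0.64 ± 0.28, with adjusted p of 0.295, 0.41 and 0.41 (edgeR). Without sgERH IL-1β replicate 3 the guides differed for NCAPG2 (-1.22 ± 0.27, adjusted p = 0.0188) and TOP2A fell with IL-1β in sgERH cells (-1.03 ± 0.19, adjusted p = 0.00306). Over all genes that omission took the calls of the interaction to 1.05%, and the genes fallen with IL-1β in sgERH cells to 0.248%, against 0.0224% with that library.

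Of the genes that work with condensin, 5 of 15 fell on average, against 2.14% of all genes: CDK1 and CCNB1, the kinase and cyclin that drive mitotic entry, at -1.08 ± 0.08 and -1.05 ± 0.07, CDCA8 and BIRC5, subunits of the chromosomal passenger complex, at -1.17 ± 0.09 and -1.21 ± 0.07, and CDCA2, a phosphatase-targeting subunit, at -1.15 ± 0.08. Short of the fold threshold were AURKB, the passenger kinase (-0.86), PLK1, a mitotic kinase (-0.76), and KIF4A, a chromosome-axis kinesin (-0.97), each with an adjusted p of 2.81e-08 or lower (edgeR). MCPH1, which restrains condensin II in interphase, was at 0.26 ± 0.30. The median of the list was -0.76, and 12 of 15 were lower by the adjusted p, against 23.2% of all genes.

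Other SMC complexes and topoisomerases are given by their own counts, and their difference from condensin was not tested. Over all genes, 2.14% fell on average, 23.2% were lower and 25.5% higher by the adjusted p, and 54.5% had an unadjusted p under 0.05. In cohesin, the ring that holds sister chromatids, 0 of 16 genes fell on average by edgeR and 1 by DESeq2 (SGO1), 12 had an unadjusted p under 0.05, 8 were lower and 2 higher by the adjusted p, and the median was -0.27, with SMC1A at -0.64, SMC3 (23.0% of reads multimapping) at -0.49 and RAD21 at -0.52. Within each treatment 1 of the 16 fell by edgeR, against 2.3%, 2.37% and 2.8% of all genes in NT, IFNγ and IL-1β. In the SMC5/6 complex, which acts in DNA repair, 1 of 7 tested genes of 8 listed fell, SLF1 at -1.08, with SMC5 at -0.23, SMC6 at 0.36 and a median of -0.23. By the adjusted p 4 of the 7 were lower and 0 higher, and 4 had an unadjusted p under 0.05. Of the other topoisomerases and their repair enzymes 0 of 7 fell on average by edgeR or DESeq2 (3 lower by the adjusted p, and 3 at an unadjusted p under 0.05), with TOP2B, the topoisomerase II that resting cells keep, at -0.87, TOP1 at -0.42 and a median of -0.18. TOP1 is uncertain, since 80.5% of its reads were multimapping, as were 94.1% of those of TOP3B, also in this list. With IFNγ TOP2B fell by DESeq2, against 336 of 13370 genes. Of Ki-67 and nucleolar partners 0 of 7 fell by either tool (4 lower by the adjusted p, and 4 at an unadjusted p under 0.05), with NIFK, which binds Ki-67, at -0.13 and a median of -0.43. Among 23 regulators of mitotic promoters 1 fell, MYBL2, the MYB subunit of MMB, at -1.36 ± 0.09, with FOXM1 at -0.86, LIN54 at 0.16, CDKN1A (p21) at 0.14 and a median of -0.20. By the adjusted p 9 of the 23 were lower and 3 higher, and 15 had an unadjusted p under 0.05. Within treatments 2, 1 and 1 of the 23 fell by DESeq2 in NT, IFNγ and IL-1β, against 297, 336 and 373 of 13370 genes. MYBL2 was among them in NT and with IFNγ, and FOXM1 was the 1 with IL-1β. With IFNγ 1 of the 23 rose by edgeR, against 5.24% of all genes. These lists were set beside an all-gene median of 0.04.

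The genes whose log2 CPM over the 15 libraries was most like the mean of the 10, by Pearson's r and described without a test, were ITGB1 (0.985), CD274 (0.983), TMPO (0.982), H2AFV (0.982), FANCI (0.981), H3-3A (0.981), NUF2 (0.980), UBE2C (0.979), DUT (0.979) and CDCA2 (0.978). All 15 libraries share the guide contrast, and within the 8 sgERH libraries r was lower, -0.05 to 0.84, as within the 7 sgAAVS1 libraries, 0.05 to 0.92. ITGB1 and H3-3A are uncertain, since 94.3% and 99.99% of their reads were multimapping. For the 10 genes themselves that share was at most 1.16%, in NCAPD2. Each of the 10 was also set against the mean of the other 9. Over 15 libraries r was 0.82 to 0.95 for 9 of them and 0.14 for NCAPD3. Within the sgERH libraries it ran from -0.74 (NCAPH2) to 0.75 (SMC2), and within the sgAAVS1 libraries from -0.72 (TOP2A) to 0.83 (NCAPH). SMC4, NCAPG and NCAPH2 were below 0 within both guides.

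In the 3 libraries set aside by the study the 10 genes did not shift together. Relative to the mean of the used libraries of the same group, on CPM of total reads, the log2 ratios ran from -5.52 for TOP2A to 0.99 for NCAPD3 in the library labelled sgAAVS1 NT replicate 1. They ran from -3.55 for SMC2 to 0.64 for NCAPH2 in sgERH IFNγ replicate 2, and from -1.80 for NCAPH to 0.20 for MKI67 in sgAAVS1 IL-1β replicate 3.

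**Figure D3:**
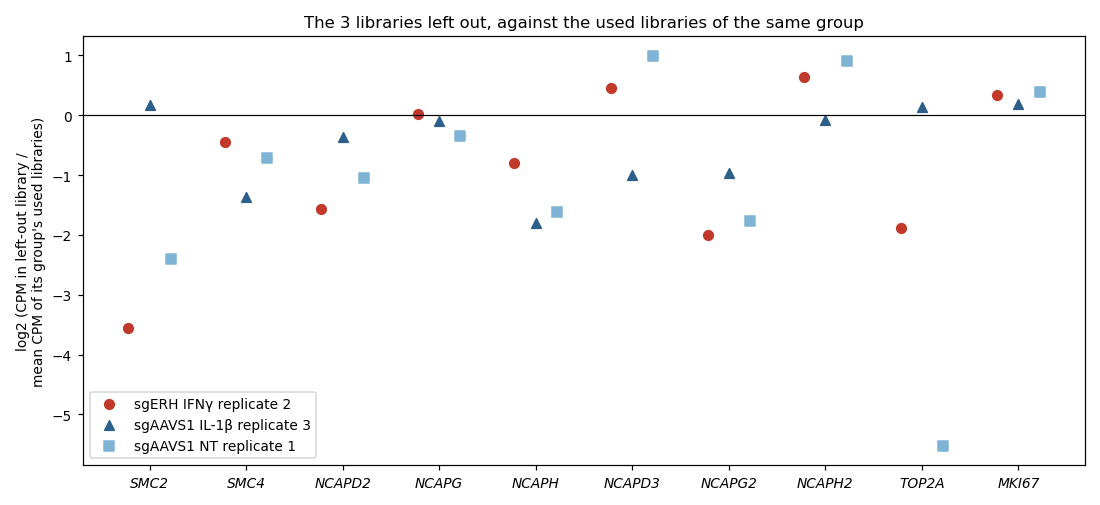
Log2 of the CPM in each of the 3 libraries left out over the mean CPM of the used libraries of its group (y axis) for the 10 genes (x axis), with 0 marking the same level. SMC4, NCAPD2, NCAPH and NCAPG2 lie under 0 in all 3 libraries, MKI67 lies above it in all 3, and TOP2A in sgAAVS1 NT replicate 1 is lowest at -5.52.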

How the data were processed

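Whole-number counts of reads for each gene symbol were deposited, which the authors made by trimming reads (Trim Galore 0.6.2, checked with FastQC 0.11.8), mapping to GRCh38 and counting with SlamDunk in 3′-end windows built with 3-GAmES. They are not normalized, and all reads, multimapping ones included, were used. There are no molecular identifiers, so reads are not independent molecules, and since nothing in the labels tells whether replicates came from separate cultures, the spread behind each p-value may be technical. Counts of 15 libraries, 4987127 to 5986338 reads each, were fitted in edgeR 4.0.16 (R 4.3.3; robust quasi-likelihood, TMM, filterByExpr, 1 model of 6 groups, 13370 genes, common coefficient of variation 12.6%), where the study used DESeq2. The 3 libraries left out follow the study. CPM in the text are TMM-scaled unless given as of total reads. Ratios used a pseudocount of 0.5. Gene positions are from GENCODE 44, and promoters from RefSeq on GRCh38.p14. Related genes are named where they stand in a list of 20 or were called on average, and the 10 most alike by r. Members and lists were chosen with earlier results of these data known. The scripts were tested on simulated data. Alternatives were DESeq2 1.42.0, its size factors, library totals, no filter, all 18 libraries, only the groups compared, no multimapping reads, a replicate block, another pseudocount and each library left out.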

Additional observations from a re-analysis of the deposited data

Results flagged for a closer look

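The 3 libraries set aside by the study entered only the fits with all 18 libraries and the comparison with their own groups, and 7 of their values lay above every sgAAVS1 library used, on CPM of total reads. The library labelled sgERH IFNγ replicate 2 had 30.0 CPM of NCAPD3, against at most 23.5 CPM in sgAAVS1 libraries and at most 28.7 CPM in the sgERH libraries used. The library labelled sgAAVS1 NT replicate 1 had 36.7 CPM of NCAPD3, 149 CPM of NCAPH2 and 169 CPM of MKI67, against at most 23.5, 82.0 and 142 CPM in the sgAAVS1 libraries used. The library labelled sgAAVS1 IL-1β replicate 3 had 32.5 CPM of SMC2, 52.2 CPM of TOP2A and 148 CPM of MKI67, against at most 28.8, 51.1 and 142 CPM.

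The same libraries were low for other genes. TOP2A had 4 reads (1.05 CPM) in sgAAVS1 NT replicate 1, against a mean of 48.2 CPM in the used libraries of that group. SMC2 was at 1.40 CPM in sgERH IFNγ replicate 2, against 16.4 CPM, and SMC4 at 303 CPM in sgAAVS1 IL-1β replicate 3, against 783 CPM. MKI67 was above its group's mean in all 3 libraries and NCAPH below it in all 3. The differences between these libraries and the rest were not tested.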

How the results depend on the processing

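Over 41 single-gene results, 899 of 943 values kept direction and side of the threshold, 17 gained a call, 20 lost one and 7 turned, all 7 of NCAPD3, which was never called. NCAPD3 was at 0.024 (IFNγ) and 0.079 (average) with library totals and at 0.07 (IFNγ) with all 18 libraries. Leaving out each library moved it between -0.44 and 0.062 in NT (above 0 without sgAAVS1 NT replicate 3), -0.397 and 0.105 with IFNγ (without sgERH IFNγ replicate 1), -0.019 and 0.198 with IL-1β (below 0 without sgERH IL-1β replicate 2) and -0.171 and 0.007 on average (without sgAAVS1 NT replicate 3). With library totals 3 genes fell in NT and 6 on average. With all 18 libraries 3 fell with IL-1β, 0 rose with IL-1β in sgAAVS1 cells, and the log2 ratios were -0.99 for NCAPD2 over NCAPD3 and 0.21 for SMC2 over SMC4. The cause was not tested. With 1 library of a group of 3 left out, 286 to 321 of 13302 to 13346 genes fell in NT and 295 to 367 with IFNγ. In the same fits 299 to 573 of all genes fell with IL-1β and 282 to 303 on average. Leaving out each library gave 4 to 6 genes fallen in NT, 5 to 6 with IFNγ, 8 in every case with IL-1β and 7 to 8 on average. It gave 0 to 1 called with IL-1β in sgERH cells, in sgAAVS1 cells and in their difference, and 0 with IFNγ. Ratios ranged from -1.03 to -0.82 for NCAPD2 over NCAPD3, -0.55 to -0.33 for NCAPG over NCAPG2, -0.70 to -0.34 for NCAPH over NCAPH2 and 0.44 to 0.61 for SMC2 over SMC4. Deviations from the group means, in same-numbered libraries of the 2 guides within a treatment, had r of -0.03 to 0.04. With 2 or 3 libraries in a group this cannot show whether the numbers pair them. A replicate block left 5, 6 and 8 genes fallen in NT, IFNγ and IL-1β and gave 8 on average, with NCAPD2 at -1.06. Over all 13370 genes that block gave 299, 321, 420 and 299 fallen, in the same order. NCAPD2 also passed on average, at -1.003 to -1.015, with DESeq2, its size factors, no filter, all 18 libraries or no multimapping reads. Groups of 2 or 3 libraries and the few reads of NCAPH limit these values.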

Other observations

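Some genes of the related lists outside the naming rule, chosen after their values were seen, stood apart from their list on average. NFYA, a subunit of the CCAAT-binding factor NF-Y, was at 0.94 ± 0.12 (SE) in sgERH over sgAAVS1 cells (adjusted p = 3.59e-07, edgeR), while NFYB and NFYC, its partners, were at -0.20 and -0.13 (adjusted p of 0.229 and 0.441). TFDP1, the dimer partner of E2F factors, was at -0.97 ± 0.11 and its relative TFDP2 at 0.62 ± 0.07 (adjusted p of 7.69e-07 and 1.27e-08). In cohesin, SGO1, which protects cohesion at centromeres, was at -0.996 ± 0.132 and PDS5B at -0.92 ± 0.08, both lower by the adjusted p, and the loader NIPBL was at 0.42 ± 0.07, higher by it (adjusted p of 4.95e-07, 2.31e-10 and 1.88e-05). None of these reached both thresholds on average by edgeR, and SGO1 did so by DESeq2. Within treatments PDS5B and TFDP1 fell by DESeq2 in NT, against 297 of 13370 genes. SGO1 fell by DESeq2 with IFNγ and with IL-1β, against 336 and 373 genes.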
